A study of Mus musculus with 6 samples.

Results

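Paraquat (PQ) was compared with control in mouse neural progenitors, using the 2 libraries whose treatment label names PQ or paraquat and the 2 libraries labelled control, which are 4 of the 6 libraries in the series. The comparison ran over the 11717 genes with a mean FPKM (fragments per kilobase of transcript, scaled to sequencing depth) of at least 1 in the 6 libraries, out of 17254 genes seen in any of them. Genes of the interferon, FOXO3 and p53 lists were set aside as examples, apart from Csf1, but stay in the counts unless stated. The account below covers other pathways, transcription factors, secreted proteins and surface proteins.

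The cells were neural stem and progenitor cells (NSPCs) that, by the study's methods, came from neonatal mice and grew as an immortalized, mixed culture lacking the Ink/Arf tumour suppressor locus, a deletion shared by treated and untreated cells. Control 1 and PQ 1 carry a genotype label spelled Ink/Ark knockout and the strain C57BL/6, whereas the labels of control 2 and PQ 2 give neither. Cells were kept in N2 medium with EGF and bFGF for 48 h, either without further treatment or with PQ at 5 µM, a dose that the labels of control 2 and PQ 2 leave out and the methods state. RNA of control 1 and PQ 1 was extracted with NucleoSpin columns, and that of control 2 and PQ 2 with TRIZOL before sequencing on BGISEQ-500, so each protocol holds 1 control and 1 PQ library. The paper's methods describe Illumina sequencing, which differs from the BGISEQ-500 label. The 2 remaining libraries, treated with the thiol antioxidant N-acetylcysteine (NAC), entered the fit for the estimate of spread. Both carry the protocol label of control 2 and PQ 2, so NAC values against both controls also span the 2 protocols. Totals were 9849392 and 10040827 expected counts in control 1 and control 2, and 10388731 and 9680436 in PQ 1 and PQ 2. The labels do not say that the libraries came from separate cultures, and the paper's reporting summary states that RNA sequencing was repeated 2 times without naming what was repeated, so p-values measure the spread between these libraries, which may be technical.

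NSPCs divide in response to EGF and FGF and can give rise to neurons, astrocytes and oligodendrocytes, and factors such as SOX2 keep them from differentiating. PQ accepts electrons from cellular reductases and passes them to oxygen, which yields superoxide inside the cell. Cells under such stress are known to alter cell division, protein turnover, amino acid supply and the factors they secrete.

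Cdkn2a, the gene of the Ink/Arf locus that encodes p16Ink4a and p19Arf, had 137 and 162 expected counts in control 1 and control 2 and 120.0 and 130.0 in PQ 1 and PQ 2. Reads were thus counted at the locus in both groups, and gene-level counts do not tell whether they fall in exons outside the deleted part, so they do not check the genotype. The neural stem cell markers had a summed FPKM of 3826 and 3897 in control and 4170.0 and 4242 in PQ, with Vim, an intermediate filament gene, as the most abundant. Of the 18 markers, 15 were tested, and Thbs4 was at 0 in the 4 libraries while Hes5 stayed at or under 3 counts. Oligodendrocyte lineage markers summed to 800.4 and 901 FPKM in control and 921 and 813 in PQ, led by Olig1, with Sox10, Mag, Mog, Enpp6 and Gpr17 at 0. Astrocyte markers, led by the gap junction gene Gja1, summed to 291 and 299 FPKM in control and 345 and 349 in PQ. The neuronal sum was 49.4 and 46.8 FPKM in control against 46.9 and 47.4 in PQ, mostly Map2, with Dlx5, Neurog2, Rbfox3 and Sp8 at 0. The labelled cell type therefore carried its stem cell markers beside Olig1 and Gja1, and defining markers of mature oligodendrocytes and neurons were absent.

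Microglia markers summed to 29.8 and 30.8 FPKM in control and 39.2 and 39.6 in PQ, while Tmem119 and Tyrobp were at 0 and Aif1, Csf1r and Ptprc had at most 3 counts. The endothelial sum was 13.2 and 14 FPKM in control and 17.4 and 19.8 in PQ, led by Flt1, with Cldn5 at 0 and Cdh5, Kdr and Tie1 at or under 3 counts. For mural cells and fibroblasts the sum was 6.92 and 6.67 FPKM in control and 7.51 and 4.88 in PQ, led by Col3a1, with Pdgfrb and Lum at or under 3 counts. Ependymal markers, led by Foxj1, summed to 12.9 and 11.2 FPKM in control and 12.1 and 11.2 in PQ. In these bulk libraries, fewer cells of a type and less RNA per cell cannot be told apart.

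At an adjusted p under 0.05 by edgeR's quasi-likelihood test, 2250 genes were called, or 19.2% of those tested in either direction, 9.76% being higher and 9.45% lower in PQ, with a median log2 fold change of 0.00 over the genes tested. The PQ and control libraries did not overlap for 2245 of the called genes, nor for 6785 (57.9%) of the genes tested, so groups standing apart is common with 2 libraries each. The number called was 866 without PQ 1, and 210 at a 2-fold threshold, of which 67.6% were higher. Genes for secreted proteins leaned upward: of 194 tested, 64 (33%) were higher and 23 (11.9%) lower, with a median of 0.13. Within the labelled protocols the secreted median was 0.21 for PQ 1 over control 1 and 0.12 for PQ 2 over control 2. Of 422 surface protein genes, 76 (18%) were higher and 28 (6.64%) lower, and their median of 0.10 stood at 0.16 and 0.05 within the protocols. Transcription factors lay under the background, with 51 of 712 higher (7.16%) and 56 lower (7.87%), a median of -0.03, and -0.03 and -0.02 within the protocols. Solute carriers were near it, with 19 of 148 higher (12.8%) and 15 lower (10.1%), a median of 0.06, and 0.14 and 0.01 within the protocols. With the genes set aside taken out, 59 of 185 secreted genes were higher (31.9%) and 23 lower, with a median of 0.11, and of 0.16 and 0.12 within the protocols. In the same way 71 of 408 surface genes, 45 of 692 transcription factors and 18 of 146 solute carriers were higher, and 27, 55 and 15 lower. Leaving out PQ 1, with each gene counted again, gave 48 secreted, 47 surface, 32 transcription factor and 11 solute carrier genes, and leaving out PQ 2 gave 68 transcription factor genes. By limma on log2(FPKM + 1), 69 transcription factor genes were called, and higher genes made up 86.4% of the secreted genes called, against 73.6% by edgeR. Without PQ 1 the higher share of the secreted genes called was 85.4%, and that of the transcription factors 37.5%, against 47.7% with none left out. For solute carriers the direction depended on the setting: 55.9% of the genes called were higher by edgeR, 43.5% by that limma fit, 37.5% by DESeq2, 30.4% (7 higher, 16 lower) without control 1 and 18.2% (2 higher, 9 lower) without PQ 1.

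**Figure D1:**
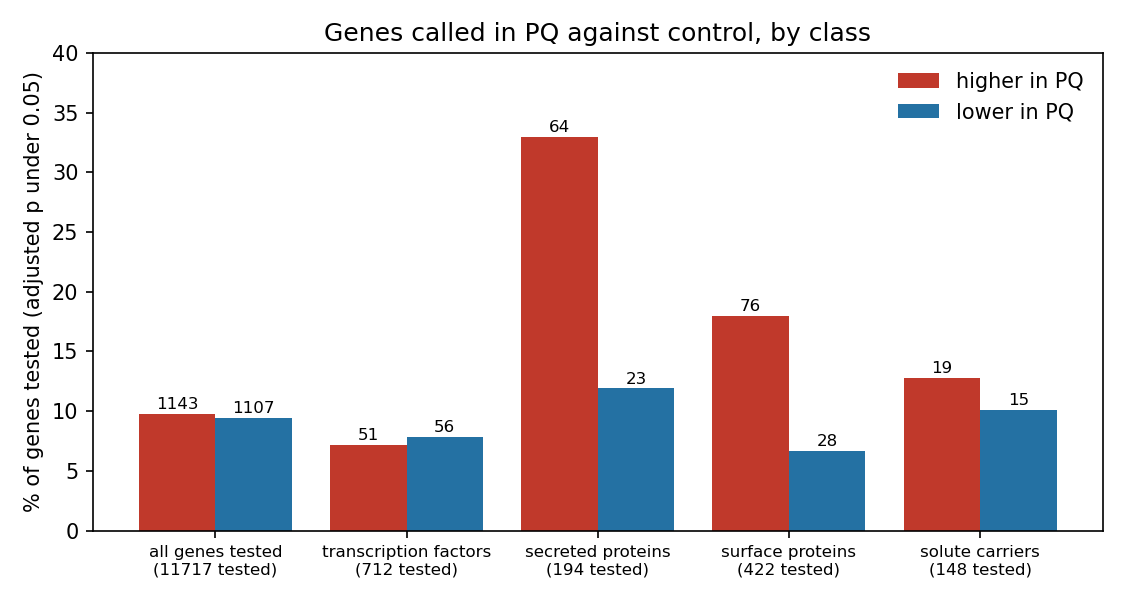
Percent of the genes tested in each class that were higher (red) or lower (blue) in PQ at an adjusted p under 0.05, with the number of genes above each bar. Among secreted protein genes 64 were higher and 23 lower, whereas transcription factors had 51 and 56.

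Slc7a5, the light chain of the exchanger that imports leucine and other large neutral amino acids, had 5025 and 2845 normalized counts in control 1 and control 2 and 888 and 962 in PQ 1 and PQ 2, and fell by 2.09 on the log2 scale (standard error 0.17, edgeR adjusted p = 4.1e-07). Both PQ libraries lay far under both controls, of which control 1 was the higher. Slc3a2, the heavy chain that takes Slc7a5 to the membrane, had 4439 and 2871 normalized counts in control and 1856 and 1789 in PQ, and fell by 1.00 (standard error 0.14, adjusted p = 1.0e-04). Its libraries did not overlap between the groups either, and the fall was 0.66 without control 1. For Slc7a1, a carrier of arginine and lysine, the counts were 2449 and 1463 in control and 663 and 662 in PQ, and the gene fell by 1.56 (standard error 0.16, adjusted p = 3.6e-06). The PQ libraries were almost level and under both controls. Slc1a4, which carries alanine, serine and cysteine, had 1644 and 1294 normalized counts in control and 562 and 648 in PQ, and fell by 1.28 (standard error 0.12, adjusted p = 1.4e-06). Here too the groups stood apart, which the rule for naming these carriers required. Some reads of Slc7a1 and Slc3a2 were shared with other sequences, so their counts carry that uncertainty.

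Shmt2, which turns serine into glycine and a carbon unit in mitochondria, had 3914 and 2944 normalized counts in control and 1249 and 1293 in PQ, and fell by 1.43 (standard error 0.12, adjusted p = 3.3e-07 by edgeR). Mthfd2, the next enzyme of that cycle, had 1429 and 865 in control and 379 and 363 in PQ, and fell by 1.63 (standard error 0.17, adjusted p = 3.1e-06). In both cases each PQ library was lower than each control library. Pck2, the mitochondrial enzyme that makes phosphoenolpyruvate from oxaloacetate, had 834 and 533 in control and 192 and 208 in PQ, a fall of 1.77 (standard error 0.17, adjusted p = 1.4e-06). Bcat1, the cytosolic transaminase of branched-chain amino acids, had 391 and 201 in control and 94.2 and 94.6 in PQ, and fell by 1.65 (standard error 0.23, adjusted p = 9.7e-05), or by 1.09 without control 1. Chac1, an enzyme that breaks down glutathione, had 552 and 327 in control and 78.8 and 72.5 in PQ, and fell by 2.53 (standard error 0.21, adjusted p = 5.1e-07). For these genes the PQ libraries were close to each other, while control 1 exceeded control 2. In NAC, compared with the same controls, the log2 fold changes were -1.89 for Slc7a5, -1.44 for Shmt2, -1.74 for Mthfd2, -1.32 for Pck2 and -3.56 for Chac1.

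**Figure D2:**
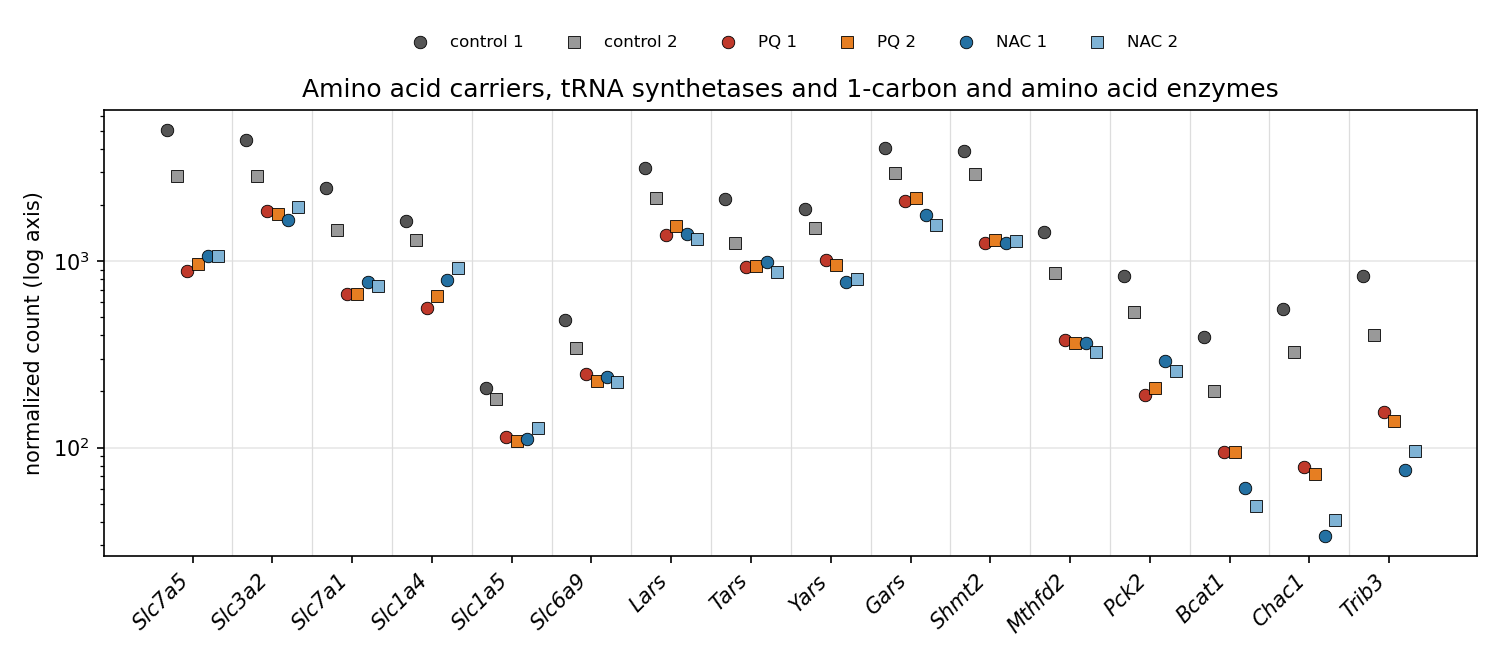
Normalized counts (log axis) of 16 genes of amino acid transport, tRNA charging and amino acid and folate metabolism in each of the 6 libraries, 1 marker per library. The genes were picked among those that fell in PQ, and for Slc7a5 the counts were 5025 and 2845 in control against 888 and 962 in PQ.

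Of the 36 aminoacyl-tRNA synthetases, which load amino acids onto their tRNAs, 14 fell and 0 rose by edgeR, with a median of -0.26 against 0.00 over the genes tested, and medians of -0.38 and -0.20 within the labelled protocols. Lars, for leucine, had 3150.0 and 2169 normalized counts in control and 1380.4 and 1535 in PQ, and fell by 0.87 (standard error 0.13, adjusted p = 1.7e-04), or by 0.57 without control 1. Tars, for threonine, had 2138 and 1254 in control and 924 and 944 in PQ, and fell by 0.86 (standard error 0.16, adjusted p = 0.001), or by 0.43 without control 1. Yars, for tyrosine, had 1902 and 1513 in control and 1007 and 956 in PQ, and fell by 0.80 (standard error 0.11, adjusted p = 6.4e-05). Both PQ libraries were under both controls for these genes, with control 1 again the higher control. Gars, for glycine, had 4019 and 2968 in control and 2093 and 2180.3 in PQ, and fell by 0.71 (standard error 0.12, adjusted p = 3.8e-04). The promoters of Tars and Gars are shown because both genes fell and both hold a match to the C/EBP-ATF response element near the start. The letters searched were TGATGNAA, on both strands of the whole RefSeq promoter sequences of GRCm38.p6, which extend past 250 bases. In that search 5 of the 26 synthetase genes with a promoter held them, as did 5 of the 7 that were called. The letters were held by 2.57% of the 9339 genes tested that had a promoter and by 4.51% of 27025 genes in all. Within the 250 bases upstream of the start site a match was found in Tars, Gars and the synthetase gene Aars. Shares of all genes for that window alone were not computed. Capitals mark the match in Tars (chr15:11399659-11399908, minus strand), 15 bases before the start, and in Gars (chr6:55037751-55038000, plus strand), 30 bases before it, each sequence reading 5′ to 3′ along the gene's strand.
Tars: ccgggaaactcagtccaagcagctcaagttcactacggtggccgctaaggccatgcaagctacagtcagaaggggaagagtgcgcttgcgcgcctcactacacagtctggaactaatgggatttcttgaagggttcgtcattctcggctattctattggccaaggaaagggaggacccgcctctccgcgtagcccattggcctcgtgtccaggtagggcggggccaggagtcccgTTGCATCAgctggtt
Gars: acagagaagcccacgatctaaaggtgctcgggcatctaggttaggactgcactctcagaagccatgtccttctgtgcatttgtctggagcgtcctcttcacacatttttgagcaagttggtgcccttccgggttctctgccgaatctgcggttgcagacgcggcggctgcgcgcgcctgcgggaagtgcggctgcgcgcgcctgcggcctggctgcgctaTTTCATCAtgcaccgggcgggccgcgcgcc
A match describes the letters in the window and was not tested as a binding site.

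Past the falls of amino acid genes, Txnip, which binds thioredoxin and curbs glucose uptake, had 194 and 130.2 normalized counts in control and 21.1 and 23.1 in PQ, and fell by 2.87 (standard error 0.24, edgeR adjusted p = 5.1e-07). Its PQ libraries were far lower than either control, and in NAC the log2 fold change against the same controls was 0.34. Rises were ranked among genes called, not set aside, with groups apart and a mean normalized count of at least 50. Apart from genes at 0 in control, they were led by Ass1, the urea cycle enzyme that joins citrulline to aspartate. Ass1 had 15.7 and 17.3 in control and 91.3 and 77.8 in PQ, rising by 2.35 on the log2 scale (standard error 0.29, adjusted p = 2.3e-05). Its groups stood well apart. Pik3r5, the regulatory subunit of a phosphoinositide kinase driven by G proteins, had 44.0 and 52.9 in control and 186 and 142 in PQ and rose by 1.76 (standard error 0.22, adjusted p = 2.5e-05), with some reads shared with other genes. Dcxr, a carbonyl-reducing enzyme that acts on xylulose, had 138 and 101 in control and 398 and 321 in PQ and rose by 1.59 (standard error 0.17, adjusted p = 4.3e-06). Neither gene overlapped between the groups. Aldh1a3, which makes retinoic acid from retinal, had 111 and 152 in control and 386 and 371 in PQ and rose by 1.53 (standard error 0.16, adjusted p = 3.5e-06). Gadd45b, a stress-induced regulator of kinases and of DNA demethylation, had 63.9 and 58.0 in control and 196 and 152 in PQ and rose by 1.52 (standard error 0.19, adjusted p = 3.0e-05). Both had PQ libraries above both controls. Against the same controls, NAC gave log2 fold changes of 1.43 for Gadd45b and 0.26 for Ass1. The NAC values were -0.05 for Pik3r5, -0.44 for Dcxr and 0.03 for Aldh1a3.

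Some of the largest folds are uncertain because the genes had fractional expected counts, in which reads are divided among genes. Which sequences share the reads was not tested. Fam177a had 0 expected counts in control 1 and control 2 and 199.8 and 178 in PQ 1 and PQ 2, at least 59.4-fold higher over a floor of 3 counts per library, but its near-identical copy Fam177a2 had 280.0 and 252 in control and 200.0 and 178 in PQ. The PQ counts of the copies were nearly equal, and DESeq2 gave Fam177a an adjusted p of 0.098. Gm2026, a predicted gene with fractional counts, had 0 in both controls and 92.0 and 183 in PQ, at least 30.7-fold higher over the same floor. NCBI gene 627914, which has no symbol in the table used, had 182 and 179 expected counts in control and 0 and 7.11 in PQ, and also had fractional counts. Its log2 fold change of -5.68 by edgeR became -10.56 without PQ 2, where the remaining PQ library was at 0, and DESeq2 gave an adjusted p of 0.18.

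Among the secreted protein genes that rose, Ccl7, which attracts monocytes, had 78.6 and 49.8 normalized counts in control and 222 and 165 in PQ, and rose by 1.60 on the log2 scale (standard error 0.21, edgeR adjusted p = 4.0e-05). Cxcl5, which attracts neutrophils, had 238 and 192 in control and 713 and 526 in PQ and rose by 1.53 (standard error 0.15, adjusted p = 1.4e-06). For both chemokines the lower PQ library exceeded the higher control. Lif, a cytokine of the gp130 receptor that supports stem cell self-renewal and astrocyte formation, had 152 and 180.1 in control and 441 and 390.0 in PQ and rose by 1.32 (standard error 0.14, adjusted p = 4.3e-06). Inhba, the subunit of activin A, had 28.3 and 30.5 in control and 76.9 and 85.1 in PQ and rose by 1.46 (standard error 0.24, adjusted p = 3.8e-04). Both were higher in each PQ library than in either control. Serpina3n, a protease inhibitor known from reactive astrocytes, had 69.2 and 69.2 in control and 186 and 197 in PQ and rose by 1.46 (standard error 0.17, adjusted p = 1.0e-05), though its reads are partly shared with other sequences. Pla2g7, which breaks down platelet-activating factor, had 45.1 and 20.3 in control and 98.1 and 86.2 in PQ and rose by 1.50 (standard error 0.29, adjusted p = 0.0014). Controls of Pla2g7 differed from each other more than its PQ libraries did, without reaching them. Against the same controls, NAC gave log2 fold changes of 1.53 for Cxcl5, 1.86 for Serpina3n and 1.64 for Pla2g7. The NAC values were 0.24 for Ccl7, 0.27 for Lif and 0.37 for Inhba.

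Among the secreted falls, Col3a1, a fibrillar collagen, had 288 and 293 normalized counts in control and 155 and 156 in PQ, and fell by 0.90 (standard error 0.14, edgeR adjusted p = 2.2e-04). Serpinh1, the collagen chaperone HSP47, had 583 and 522 in control and 314 and 297 in PQ and fell by 0.85 (standard error 0.12, adjusted p = 6.4e-05). Olfm2, a secreted olfactomedin, had 1114 and 899 in control and 617 and 538 in PQ and fell by 0.80 (standard error 0.11, adjusted p = 1.0e-04). For these 3 genes both PQ libraries lay below both controls. The falls of Angptl6, Ccl28 and Adamts6 had adjusted p of 0.048, 0.031 and 0.035 and were not called by DESeq2 (adjusted p = 0.17, 0.13 and 0.13) nor by limma on log2(FPKM + 1). Without PQ 1 the log2 fold changes were -0.88, -0.53 and -0.65 with adjusted p of 0.14, 0.27 and 0.19. Without control 1 the log2 fold changes were -0.57, -0.67 and -0.69 with adjusted p of 0.25, 0.096 and 0.088. Angptl6 had an adjusted p of 0.2 without PQ 2, Ccl28 of 0.064 without control 2, and Adamts6 of 0.1 and 0.087 without PQ 2 and control 2, and reads of Ccl28 were partly shared.

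**Figure D3:**
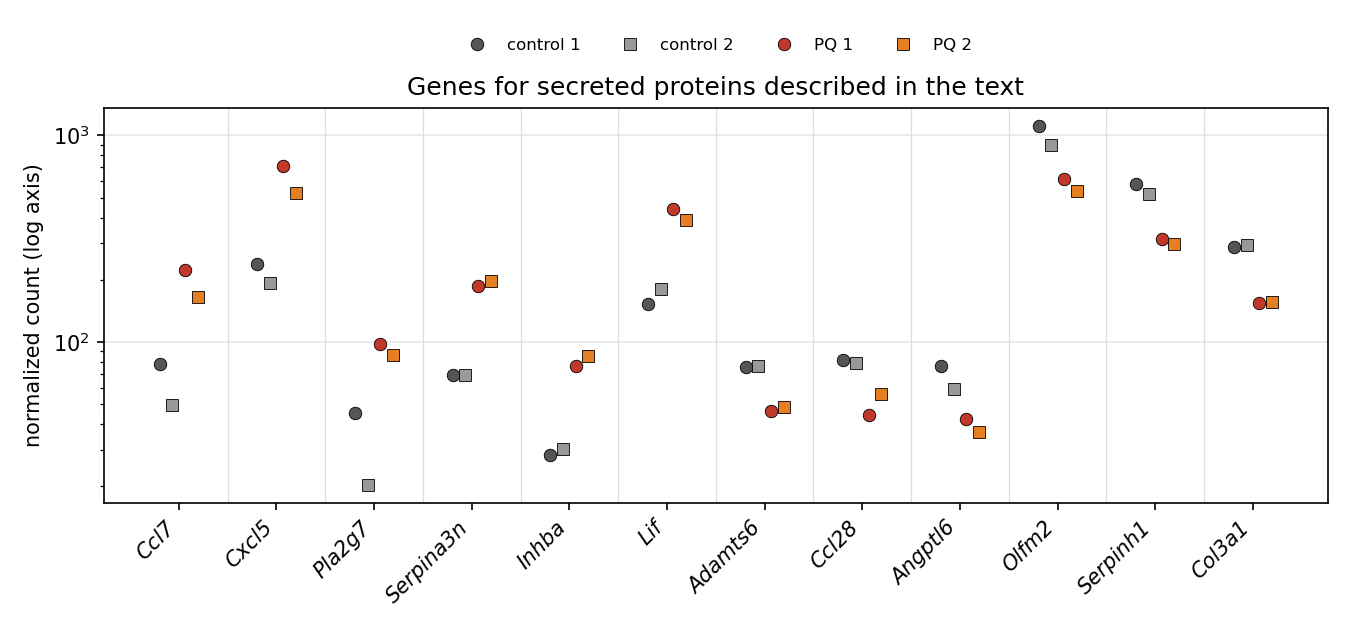
Normalized counts (log axis) of 12 secreted protein genes in each control and PQ library, 1 marker per library, with the 6 largest rises and 6 largest falls among genes called, not set aside, with a mean count of at least 50 and with groups apart by choice. Cxcl5 had 238 and 192 in control and 713 and 526 in PQ.

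NF-kB is held in the cytoplasm by its inhibitors until stress or cytokines release it, and its target genes include those inhibitors. Of 21 tested genes of the NF-kB list, 11 rose and 0 fell by edgeR, with a median of 0.40 and of 0.38 in each labelled protocol, and the count was 6 without PQ 1. Among the feedback inhibitors, Nfkbia, which encodes IkB alpha, had 646 and 563 normalized counts in control and 965 and 866 in PQ and rose by 0.60 (standard error 0.11, adjusted p = 5.7e-04). Tnfaip3, the ubiquitin-editing enzyme A20, had 547 and 497 in control and 733 and 719 in PQ and rose by 0.48 (standard error 0.10, adjusted p = 0.0033). Neither overlapped between the groups. Of the 9 target genes tested, 7 rose, with a median of 0.76, and 4 were called without PQ 1 and 4 without control 2. Lcn2, the siderophore-binding lipocalin, had 709 and 579 in control and 1677 and 1398 in PQ and rose by 1.26 (standard error 0.12, adjusted p = 1.1e-06). Cxcl1, a neutrophil chemokine, had 920.0 and 548 in control and 1743 and 1607 in PQ and rose by 1.19 (standard error 0.15, adjusted p = 3.4e-05). Tnfaip2, a cytokine-induced protein that shapes membrane protrusions, had 131 and 119 in control and 264 and 259 in PQ and rose by 1.06 (standard error 0.15, adjusted p = 8.2e-05). Each of these was higher in both PQ libraries than in either control. Csf1, the macrophage growth factor, is also in the interferon list and rose by 0.76 (standard error 0.13, adjusted p = 6.5e-04), or by 0.46 without PQ 1. In NAC, against the same controls, the log2 fold change was 1.01 for Lcn2, 1.04 for Cxcl1 and -0.41 for Tnfaip2.

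Secreted factors known from senescent cells included several of these chemokines: of 16 tested, 9 rose and 2 fell, with a median of 0.62, of 0.72 and 0.57 within the protocols, and 7 were called without PQ 1. Ereg, a ligand of the EGF receptor, had 326 and 282 normalized counts in control and 520.1 and 551 in PQ and rose by 0.82 (standard error 0.12, edgeR adjusted p = 1.1e-04). Both PQ libraries exceeded both controls, and in NAC the log2 fold change was -0.14. Ptgs2, the inducible cyclooxygenase that makes prostaglandin precursors, had 82.8 and 47.8 in control and 168 and 196 in PQ and rose by 1.48 (standard error 0.21, adjusted p = 8.2e-05), again with no overlap. It belongs to the eicosanoid and purine list, in which 4 of 17 rose and 0 fell by edgeR, with a median of 0.36, and 2 were called without PQ 1.

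Of 63 tested genes of the extracellular matrix, the scaffold that NSPCs secrete and bind, 17 were higher and 12 lower, with a median of 0.05. The number called was 16 without PQ 1 and 18 by limma on log2(FPKM + 1). Spp1, the adhesive phosphoprotein osteopontin, was the most counted of the rises described here, with 5964 and 5789 normalized counts in control and 11566 and 12389.8 in PQ, rising by 1.03 (standard error 0.09, edgeR adjusted p = 5.1e-07). Vcan, the large proteoglycan versican, had 2347 and 2173 in control and 4191 and 3905 in PQ and rose by 0.84 (standard error 0.09, adjusted p = 6.6e-06). PQ libraries exceeded controls by far more than either group spread. Col6a1, a collagen VI chain, had 221 and 234 in control and 409 and 411 in PQ and rose by 0.85 (standard error 0.13, adjusted p = 1.4e-04). Col18a1, a basement membrane collagen, had 1164 and 1309 in control and 2000.5 and 2046 in PQ and rose by 0.71 (standard error 0.11, adjusted p = 2.5e-04). These collagens went opposite to Col3a1. Of the matrix enzymes and inhibitors, Timp1, an inhibitor of metalloproteinases, had 507 and 546 in control and 888 and 862 in PQ and rose by 0.73 (standard error 0.12, adjusted p = 3.4e-04). Adamts1, a protease that cuts versican, had 666 and 720.2 in control and 1108 and 1188 in PQ and rose by 0.73 (standard error 0.10, adjusted p = 6.7e-05). Both had PQ libraries above both controls. On the lower side, Lamc1, the laminin gamma chain of most basement membranes, had 6061 and 6024 in control and 4253 and 4261 in PQ and fell by 0.51 (standard error 0.09, adjusted p = 4.2e-04). In NAC, against the same controls, Spp1 had a log2 fold change of -0.70, Col6a1 of -0.91 and Vcan of 0.16.

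Among the surface protein genes that rose, Tlr2, a receptor of bacterial lipoproteins, had 22.0 and 23.4 normalized counts in control and 109.6 and 73.6 in PQ and rose by 2.01 (standard error 0.26, edgeR adjusted p = 4.0e-05). Il4ra, the receptor chain of interleukin 4, had 166 and 201 in control and 417 and 403 in PQ and rose by 1.16 (standard error 0.14, adjusted p = 1.4e-05). Il13ra1, which pairs with Il4ra, had 123 and 118 in control and 265 and 325 in PQ and rose by 1.29 (standard error 0.16, adjusted p = 1.7e-05). For all 3 receptors the PQ and control libraries were apart. Cntfr, the receptor of ciliary neurotrophic factor, had 65.0 and 76.3 in control and 162 and 143 in PQ and rose by 1.11 (standard error 0.18, adjusted p = 3.6e-04). Ano3, of the anoctamin family of membrane proteins, had 138 and 108 in control and 311 and 350.1 in PQ and rose by 1.42 (standard error 0.16, adjusted p = 7.5e-06). Their groups did not overlap. Against the same controls, NAC gave log2 fold changes of 2.24 for Tlr2, -0.21 for Il4ra, -0.03 for Il13ra1 and -0.22 for Ano3.

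Of 6 glutamate receptor genes tested, 2 rose and 1 fell. Grin1, the obligate NMDA receptor subunit, had 38.8 and 41.7 normalized counts in control and 105 and 83.0 in PQ and rose by 1.22 (standard error 0.23, edgeR adjusted p = 8.7e-04). Gria3, an AMPA receptor subunit, had 517 and 538 in control and 777 and 766 in PQ and rose by 0.55 (standard error 0.10, adjusted p = 7.6e-04). Grm5, a metabotropic receptor of neural progenitors and neurons, had 1972 and 1965 in control and 1017 and 1133 in PQ and fell by 0.87 (standard error 0.10, adjusted p = 6.6e-06). In each case the groups stood apart, and Grm5 had a log2 fold change of 0.93 in NAC against the same controls. Fgfr3, a receptor of the FGF that the medium supplies, had 542 and 641 in control and 301 and 286 in PQ and fell by 1.01 (standard error 0.12, adjusted p = 1.1e-05). Trpc2, a cation channel, had 168 and 167 in control and 95.2 and 87.3 in PQ and fell by 0.87 (standard error 0.16, adjusted p = 9.8e-04). Both were under the controls in each PQ library. P2rx3, an ATP-gated channel, fell by 0.85 with an edgeR adjusted p of 0.018. The log2 fold change was -0.66 without control 1 and -0.68 without PQ 2, and neither run called it. DESeq2 gave -0.86 with an adjusted p of 0.087. The adjusted p was 0.1 and 0.15 by limma on log2(FPKM + 1) and log2(FPKM + 0.1).

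Among the transcription factors that rose, Epas1, the oxygen-regulated HIF-2 alpha, had 128 and 153 normalized counts in control and 373 and 342 in PQ and rose by 1.35 (standard error 0.15, edgeR adjusted p = 8.8e-06). Ahr, the receptor of aryl hydrocarbons, had 34.6 and 49.8 in control and 96.1 and 106 in PQ and rose by 1.25 (standard error 0.23, adjusted p = 7.7e-04), against an adjusted p of 0.066 by limma on log2(FPKM + 0.1). Zbtb42, a zinc finger gene, had 38.8 and 66.1 in control and 139 and 117 in PQ and rose by 1.28 (standard error 0.23, adjusted p = 6.4e-04). PQ libraries lay above both controls for these 3 genes, and reads of Epas1 were partly shared. In the hypoxia-responsive list 0 of 13 genes rose and 4 fell, with a median of -0.25, and 0 were called without PQ 1 and 2 by limma on log2(FPKM + 1). Further rises were seen for Myrf, the factor of myelin genes, by 0.96 (standard error 0.22), for Meis3, a homeodomain cofactor, by 0.89 (standard error 0.23), and for Mafk, a small Maf protein that pairs with NRF2 and BACH1, by 0.84 (standard error 0.23). Their adjusted p were 0.0055, 0.0097 and 0.014, and became 0.15, 0.067 and 0.2 without PQ 1, where the log2 fold changes were 0.69, 0.89 and 0.62. Without control 1 the adjusted p were 0.061 for Meis3 and 0.092 for Mafk. DESeq2 gave 0.05 and 0.056 for these 2 genes, and limma on log2(FPKM + 1) gave 0.085 for Myrf.

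Nr2e1, which encodes TLX and keeps adult neural stem cells self-renewing, had 344 and 337 normalized counts in control and 205 and 225 in PQ and fell by 0.66 (standard error 0.13, edgeR adjusted p = 0.0012). Slc1a3, the glutamate transporter of radial glia and astrocytes, had 4641 and 3988 in control and 3025 and 3182 in PQ and fell by 0.48 (standard error 0.09, adjusted p = 0.0016). Both belong to the neural stem cell markers, of which 4 of 15 fell and 1 rose. Within that list Sox2 fell by 0.35 with an adjusted p of 0.014, which reached 0.15 when libraries were left out, the call being lost without control 1, PQ 1 or PQ 2. Nes, an intermediate filament gene of progenitors, rose by 0.34 with an adjusted p of 0.0086, which reached 0.081, the call being lost without PQ 1 or PQ 2. E2f8, a repressor of the late cell cycle, had 710.5 and 813 in control and 395 and 388 in PQ and fell by 0.96 (standard error 0.11, adjusted p = 7.6e-06). Tfap4, a helix-loop-helix factor linked to growth, had 88.0 and 84.4 in control and 46.1 and 39.9 in PQ and fell by 1.00 (standard error 0.21, adjusted p = 0.0022). Neither showed any overlap between the groups.

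In the circadian clock list 4 of 17 genes were lower and 1 higher, with a median of -0.03, and 2 were called by DESeq2, 8 without the FPKM filter, 1 without PQ 1, 3 without PQ 2 and 3 by limma on log2(FPKM + 1). Nfil3, a basic leucine zipper repressor that feeds into the circadian clock, had 323 and 222 normalized counts in control and 115 and 126 in PQ and fell by 1.17 (standard error 0.18, edgeR adjusted p = 2.1e-04). Cebpg, a partner of ATF4, had 1856 and 1176 in control and 743 and 855 in PQ and fell by 0.92 (standard error 0.15, adjusted p = 3.5e-04), or by 0.56 without control 1, with reads partly shared. The groups were apart for both genes, with control 1 above control 2. Ddit3, the stress factor CHOP, had 685 and 306 in control and 239 and 246 in PQ and fell by 1.03 (standard error 0.23, adjusted p = 0.0043), a call that rested on control 1, since the fall was 0.34 with an adjusted p of 0.16 without it. DESeq2 gave Ddit3 an adjusted p of 0.13, and limma on log2(FPKM + 1) gave 0.069. Of the immediate early genes, 6 of 23 were higher and 2 lower, with a median of 0.16, and 4 were called without PQ 1. Egr1, a growth-responsive zinc finger factor, had 1007 and 937 in control and 649.8 and 642 in PQ and fell by 0.59 (standard error 0.10, adjusted p = 4.4e-04). Fos, of the AP-1 factors, had 91.2 and 108 in control and 167 and 170.3 in PQ and rose by 0.76 (standard error 0.18, adjusted p = 0.0067). The libraries of the groups were apart for both, in opposite directions.

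**Figure D4:**
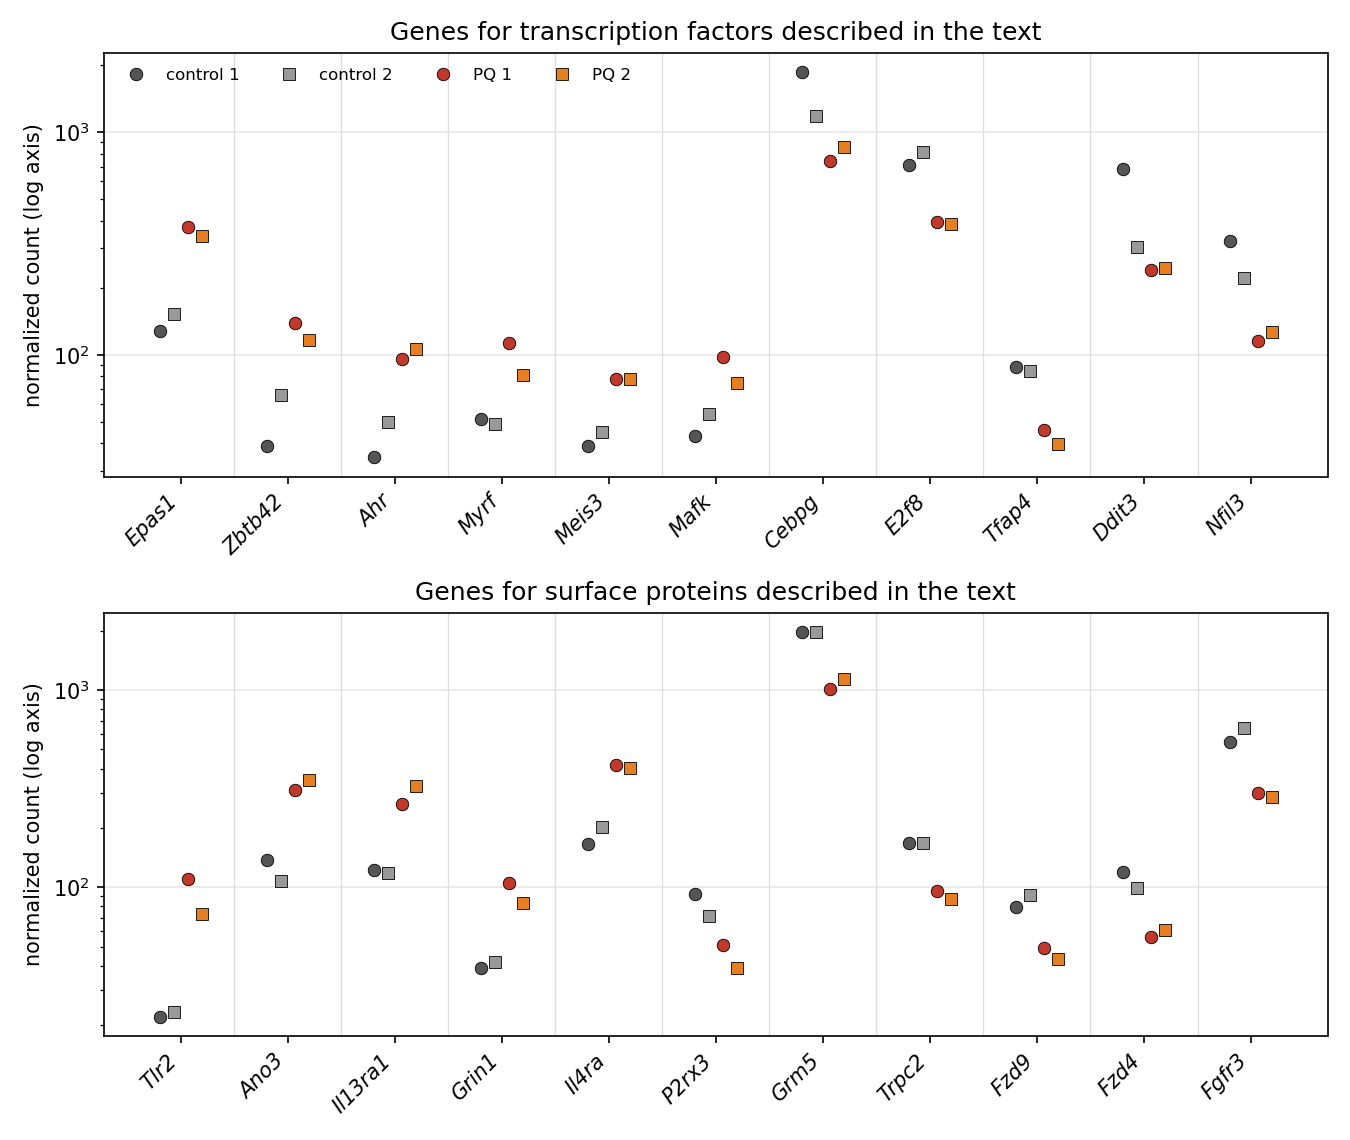
Normalized counts (log axis) of 11 transcription factor genes (top) and 11 surface protein genes (bottom) in each control and PQ library, 1 marker per library. E2f8 had 710.5 and 813 in control and 395 and 388 in PQ, and the 2 controls of Ddit3 (685 and 306) differ from each other more than control 2 does from PQ.

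Of 13 mitotic kinesins, which build and shorten the spindle and move chromosomes, 13 fell, with a median of -0.65 and of -0.80 and -0.49 within the labelled protocols. Of 13 kinesins of intracellular transport tested, 3 rose and 1 fell, with a median of 0.11, and 2 were called without control 1, 2 without PQ 1, 2 without PQ 2 and 2 by limma on log2(FPKM + 1). Kif15, which slides spindle microtubules apart, had 1242 and 1144 normalized counts in control and 611 and 658 in PQ and fell by 0.91 (standard error 0.10, edgeR adjusted p = 7.6e-06). Kif22, which pushes chromosome arms outward, had 1417 and 1506 in control and 793 and 813 in PQ and fell by 0.86 (standard error 0.09, adjusted p = 6.7e-06). Kif11, the motor that separates the spindle poles, had 1970.0 and 1864 in control and 1146 and 1329.8 in PQ and fell by 0.63 (standard error 0.11, adjusted p = 4.9e-04). The PQ libraries of these motors were below both controls, and reads of Kif15 and Kif11 are partly shared with other sequences. In NAC the log2 fold changes against the same controls were 0.09 for Kif15, -0.10 for Kif22 and 0.27 for Kif11.
The promoters of Kif15 (chr9:122950831-122951080, plus strand) and Kif22 (chr7:127042421-127042670, minus strand) are shown because these had the largest falls of the list. Each also holds a match to the letters of the cell cycle homology region close to the start. The letters were TTTGAA, searched on both strands of the whole promoter sequences, which extend past the 250 bases shown. In that search 10 of the 12 mitotic kinesins with a promoter held them, against 14% of the genes tested and 20.2% of all genes with a promoter. Within the 250 bases a match was found in Kif15, Kif22, Kif14, Kif2c and Kif11, and the other kinesins matched outside them. Shares of all genes for the 250 bases alone were not computed. A match describes the letters and was not tested as a binding site. Capitals mark the matches, 234 and 19 bases before the start in Kif15 and 215 and 17 bases before it in Kif22.
Kif15: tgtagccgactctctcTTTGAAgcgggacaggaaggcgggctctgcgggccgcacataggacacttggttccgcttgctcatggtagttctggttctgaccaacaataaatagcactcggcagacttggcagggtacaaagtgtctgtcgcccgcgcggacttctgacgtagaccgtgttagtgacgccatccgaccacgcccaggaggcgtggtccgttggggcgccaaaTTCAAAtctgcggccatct
Kif22: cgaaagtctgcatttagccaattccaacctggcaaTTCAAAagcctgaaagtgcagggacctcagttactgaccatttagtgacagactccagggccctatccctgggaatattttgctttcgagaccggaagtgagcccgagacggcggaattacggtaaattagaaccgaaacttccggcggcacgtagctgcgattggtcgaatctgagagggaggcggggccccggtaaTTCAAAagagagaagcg

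Of 28 genes of nucleotide and polyamine metabolism, which dividing cells need, 14 were lower and 2 higher, with a median of -0.32, of -0.32 and -0.28 within the protocols, and 10 called without PQ 1. Tk1, which phosphorylates thymidine, had 479.9 and 541 normalized counts in control and 307 and 266 in PQ and fell by 0.83 (standard error 0.12, edgeR adjusted p = 1.2e-04). Both its PQ libraries were lower than both controls. In the polyamine branch Odc1, which makes putrescine, had 30476 and 29325 in control and 19701 and 21565 in PQ and fell by 0.54 (standard error 0.09, adjusted p = 3.7e-04), with reads partly shared. Srm, which makes spermidine, had 431 and 495 in control and 298 and 284 in PQ and fell by 0.67 (standard error 0.12, adjusted p = 5.6e-04). The catabolic enzyme Sat1, which acetylates polyamines for export, went the other way, with 851 and 761 in control, 1179.5 and 1213 in PQ and a rise of 0.57 (standard error 0.10, adjusted p = 5.3e-04). None of these 3 polyamine genes overlapped between the groups. In NAC, against the same controls, Odc1 had a log2 fold change of -0.77 and Sat1 of 0.64.

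The nuclear envelope list had 8 of 21 genes lower and 1 higher, with a median of -0.15, of -0.07 and -0.24 within the protocols. Tmpo, which encodes the lamin-binding LAP2 proteins, had 4061 and 3885 normalized counts in control and 2251 and 2610.2 in PQ and fell by 0.71 (standard error 0.10, edgeR adjusted p = 1.2e-04). Lbr, the lamin B receptor, had 1009 and 890.1 in control and 587 and 660.2 in PQ and fell by 0.61 (standard error 0.10, adjusted p = 5.1e-04). Banf1, which ties chromatin to the envelope, had 1225 and 1232 in control and 892 and 863 in PQ and fell by 0.48 (standard error 0.09, adjusted p = 0.0013). For these 3 genes no PQ library reached a control. Stmn1, a microtubule-destabilizing protein of dividing progenitors, had 4166 and 3738 in control and 2763 and 2622 in PQ and fell by 0.55 (standard error 0.09, adjusted p = 3.6e-04), with reads partly shared. Among regulators of growth arrest, Tob1, an antiproliferative adaptor, had 766 and 710.1 in control and 1203 and 1088 in PQ and rose by 0.63 (standard error 0.11, adjusted p = 4.1e-04), with reads partly shared. Cdkn2c, the CDK inhibitor p18, had 386 and 367 in control and 225 and 257 in PQ and fell by 0.65 (standard error 0.12, adjusted p = 0.0012). The libraries were apart for each, and in the growth arrest list 5 of 19 rose and 3 fell.

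Of 54 genes of the lysosome, where hydrolases degrade material at a pH held by a proton pump, 24 were higher and 0 lower by edgeR, with a median of 0.30, of 0.31 and 0.26 within the protocols. The count was 6 without PQ 1 and 13 without PQ 2. Ctsd, the main aspartic protease of lysosomes, had 4807 and 5323 normalized counts in control and 9349.7 and 8597 in PQ and rose by 0.83 (standard error 0.09, adjusted p = 7.9e-06). Ctsh, a cysteine protease, had 91.2 and 99.7 in control and 167 and 166 in PQ and rose by 0.80 (standard error 0.17, adjusted p = 0.0027). Each was higher in both PQ libraries than in either control. Of 18 subunits of the vacuolar proton pump, 9 rose and 0 fell, with a median of 0.34, and 3 were called without PQ 1 and 5 without PQ 2. Atp6v1d, of the pump's stalk, had 710.5 and 562 in control and 912 and 948 in PQ and rose by 0.55 (standard error 0.13, adjusted p = 0.0055). Of 31 autophagy genes, 5 rose and 0 fell by edgeR, with a median of 0.09, and 3 were called without control 1 and 2 without PQ 1. Sqstm1, the cargo receptor p62, had 2599.8 and 2671 in control and 5004 and 4324 in PQ and rose by 0.82 (standard error 0.09, adjusted p = 9.3e-06). Its PQ libraries far exceeded both controls. The core letters of the lysosomal CLEAR motif, CACGTGAC, were searched on both strands of the whole promoter sequences, which extend past 250 bases. They were found in 11 of the 43 lysosomal genes with a promoter, against 5.09% of the genes tested and 2.55% of all genes with a promoter. Of the 19 that were called, 3 held them, among them Ctsd.

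Cytosolic heat shock proteins, chaperones that refold or sequester damaged proteins, had 8 of 18 genes higher and 0 lower by edgeR, with a median of 0.20, of 0.11 and 0.25 within the protocols. Hspb8, a small chaperone, had 843 and 965 normalized counts in control and 1845 and 1688 in PQ and rose by 0.97 (standard error 0.10, adjusted p = 4.3e-06). Hspa1b, an inducible HSP70, had 46.1 and 60.0 in control and 113 and 122 in PQ and rose by 1.14 (standard error 0.21, adjusted p = 7.0e-04), with reads partly shared. Dnajb4, a cochaperone, had 835 and 824 in control and 1247 and 1264 in PQ and rose by 0.60 (standard error 0.10, adjusted p = 3.3e-04). All 3 were apart between the groups. Chaperones of the endoplasmic reticulum stayed near the background, with 2 of 22 higher and 1 lower and a median of 0.07, though 5 were called without control 1, 1 without PQ 1 and 5 without the FPKM filter.

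Cell death regulators outside the p53 list had 9 of 25 genes higher and 1 lower, with a median of 0.23, of 0.24 and 0.20 within the protocols, and 4 called without PQ 1. Casp4, the inflammatory caspase-11 that senses bacterial lipopolysaccharide, had 27.2 and 21.4 normalized counts in control and 75.0 and 73.6 in PQ and rose by 1.61 (standard error 0.25, edgeR adjusted p = 2.3e-04). Mlkl, the executor of necroptosis, had 517 and 546 in control and 752 and 821 in PQ and rose by 0.56 (standard error 0.10, adjusted p = 7.8e-04). Birc5, which encodes survivin and also serves chromosome segregation, had 569 and 529 in control and 379.7 and 383 in PQ and fell by 0.53 (standard error 0.11, adjusted p = 0.0018), with reads partly shared. The groups were apart for the 3 genes, and the NAC log2 fold change against the same controls was 1.85 for Casp4 and -0.52 for Mlkl.

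Among genes of cholesterol and lipid transport, 7 of 39 genes were higher and 2 lower, with a median of 0.02. Apoe, the apolipoprotein of astrocytes, had 165 and 130.2 normalized counts in control and 431 and 293 in PQ and rose by 1.30 (standard error 0.17, edgeR adjusted p = 4.0e-05). It exceeded the controls in each PQ library, and in NAC, against the same controls, the log2 fold change was 1.96.

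Lists of signalling pathways that pattern progenitors were set beside the shares over all genes tested, 9.76% higher and 9.45% lower. The Notch list, with 5.56% higher and 11.1% lower, was near those shares. The shares were 11.1% and 22.2% in the Wnt list, and 29.6% and 3.7% in the BMP and TGF-beta list. In the BMP and TGF-beta list 8 of 27 genes rose and 1 fell, with a median of 0.11, and 5 were called without control 1, 5 without PQ 1 and 5 without PQ 2. Beside the ligand Inhba, its antagonist Fst, which encodes the activin-binding follistatin, had 40.9 and 61.0 normalized counts in control and 108 and 114 in PQ and rose by 1.11 (standard error 0.23, edgeR adjusted p = 0.0022). Gdf11, a ligand that restrains neurogenesis, had 256 and 250.2 in control and 498 and 387 in PQ and rose by 0.81 (standard error 0.13, adjusted p = 3.6e-04). Tgfbr3, the coreceptor betaglycan, had 184 and 186 in control and 348 and 292 in PQ and rose by 0.79 (standard error 0.14, adjusted p = 7.4e-04). No PQ library of the 3 genes fell within the range of the controls. In the Wnt list 3 of 27 rose and 6 fell, with a median of -0.11, and 2 were called without PQ 1 and 5 by limma on log2(FPKM + 1). Fzd9, a Wnt receptor, had 79.6 and 91.6 in control and 49.0 and 43.1 in PQ and fell by 0.89 (standard error 0.21, adjusted p = 0.0051). Fzd4 had 119 and 98.7 in control and 55.8 and 61.0 in PQ and fell by 0.90 (standard error 0.20, adjusted p = 0.0035), against an adjusted p of 0.054 without PQ 1. For both receptors the PQ libraries were under the controls. In the Notch list 1 of 18 rose and 2 fell, with a median of 0.04, and 1 was called without PQ 1. Lfng, the glycosyltransferase that tunes Notch to its ligands, had 862 and 776 in control and 510.5 and 495 in PQ and fell by 0.70 (standard error 0.10, adjusted p = 1.2e-04). Its groups were well apart.

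Solute carriers of vitamins, ions and other cargo changed in both directions. Slc19a1, the reduced folate carrier, had 147 and 130.2 normalized counts in control and 84.6 and 54.7 in PQ and fell by 0.98 (standard error 0.21, edgeR adjusted p = 0.0024). Slc19a2, a thiamine carrier of the same family, had 414 and 449.6 in control and 632 and 636 in PQ and rose by 0.55 (standard error 0.11, adjusted p = 0.0013). The groups were apart for both, in opposite directions. Slc4a4, a sodium bicarbonate cotransporter with partly shared reads, had 355 and 402 in control and 217 and 209 in PQ and fell by 0.83 (standard error 0.12, adjusted p = 1.4e-04). Slco3a1, an organic anion carrier, had 977 and 1017 in control and 1556 and 1405 in PQ and rose by 0.57 (standard error 0.10, adjusted p = 4.5e-04). Neither had a PQ library within reach of the controls. The rises of Slc43a2, a carrier of large neutral amino acids, and of Slc8b1, Slc46a1 and Slc4a3, by 0.84, 0.69, 0.61 and 0.57, were not called without PQ 1, where the log2 fold changes were 0.59, 0.54, 0.38 and 0.54 with adjusted p of 0.12, 0.2, 0.37 and 0.099. Without control 1, Slc8b1, Slc46a1 and Slc4a3 had adjusted p of 0.19, 0.16 and 0.11, the rise of Slc8b1 being 0.41, whereas it was 1.05 without control 2. By limma on log2(FPKM + 1) the adjusted p were 0.071 for Slc43a2 and 0.057 for Slc8b1, and DESeq2 gave 0.1 for Slc46a1. Reads of Slc43a2 and Slc8b1 were partly shared with other sequences.

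Among the proteasome, mitochondrial ribosomal, respiratory chain and cytosolic ribosomal families, few genes were called apart from the cytosolic ribosomal proteins. Of 38 proteasome subunits 2 rose and 0 fell by edgeR, with a median of 0.05, and 1 was called without PQ 1. Of 78 mitochondrial ribosomal proteins 1 rose and 2 fell, with a median of -0.03, although 8 were called without control 2, 1 without PQ 1, 1 without PQ 2 and 1 by DESeq2. For the 88 nuclear-encoded subunits of the respiratory chain 5 rose and 0 fell, with a median of 0.06, while 8 were called without control 1, 0 without PQ 1 and 10 by limma on log2(FPKM + 1). Of 80 cytosolic ribosomal proteins 19 fell and 1 rose, with a median of -0.20, of -0.30 and -0.10 within the protocols. That count was 13 without control 1, 3 without PQ 1, 6 without PQ 2, 11 with the protocol as a block and 7 by limma on log2(FPKM + 1). Rpsa, a protein of the small ribosomal subunit, had 14216 and 14175 normalized counts in control and 10854 and 10760.4 in PQ and fell by 0.39 (standard error 0.09, adjusted p = 0.0036). Its PQ libraries were clearly below both controls.

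**Figure D5:**
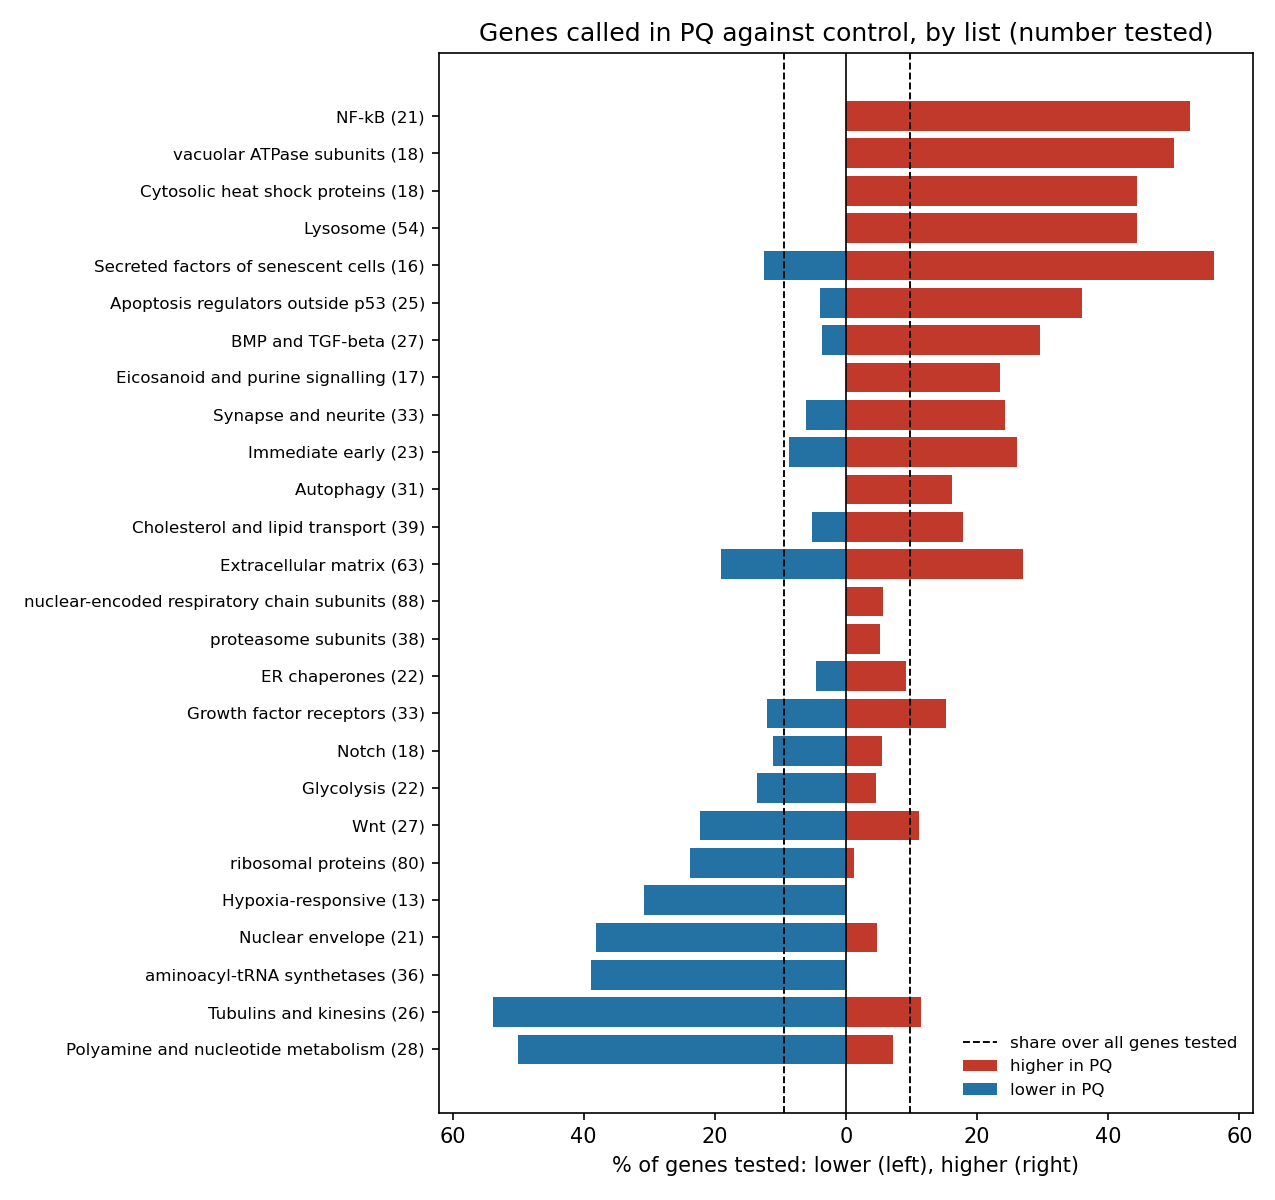
Percent of the genes tested in each of 26 lists and families that were higher (right, red) or lower (left, blue) in PQ at an adjusted p under 0.05, with the number tested in brackets and the shares over the genes tested, 9.76% and 9.45%, as dashed lines. Of the NF-kB list 11 of 21 genes were higher, and of the polyamine and nucleotide list 14 of 28 were lower.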

How the data were processed

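The authors deposited for each library a table of genes by NCBI identifier with an expected count, in which reads matching several genes are divided among them, and an FPKM value. The submitters' processing notes name TopHat2 2.0.11, Cufflinks 2.1.1 and mm9 for control 1 and PQ 1, and HISAT2 2.0.4, Bowtie2 2.2.5, RSEM and mm10 for the other libraries, although the tables share their columns. Genes missing from a table were taken as 0. Symbols came from the NCBI table of GRCm38.p6 for 17199 of 17254 genes. Promoters of the same build came from RefSeq.

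Expected counts were rounded and tested with edgeR 4.0.16 in R 4.3.3 (TMM normalization, quasi-likelihood test of PQ against control, 6 libraries, no covariates) where FPKM averaged 1 or more, and p was adjusted by Benjamini-Hochberg. Normalized counts are expected counts scaled by the TMM library sizes. Values of all-zero groups were compared with a floor of 3 counts per library. Genes named were the 10 largest rises and falls, and the 6 of each in each of 4 classes, among called genes with groups apart and a mean normalized count of at least 50, plus examples from lists, and not each gene so chosen is described. Genes of the interferon, FOXO3 and p53 lists were left out of the naming by rule but not of the counts, and Csf1 was named from the NF-kB list. Members, lists and motifs were chosen with earlier results of these data known. A search for a kappa-B motif in the NF-kB list was also run and left out, because a motif of its length may not be typed into a script here, so the motifs shown are not each one searched. No test was made on lists, which are described by counts and medians.

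Alternatives were DESeq2's size factors, DESeq2 1.42.0, limma 3.58.1 on log2(FPKM + 1) and log2(FPKM + 0.1), no filter, the 4 libraries alone, the protocol as a block, a 2-fold threshold (for the number of genes changed), and leaving out each library. NAC was not analysed here beyond the values shown.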

Additional observations from a re-analysis of the deposited data

How the results depend on the processing

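The number of genes changed, 2250, was 210 at a 2-fold threshold and ranged from 866 to 2206 when a control or PQ library was left out, the lone library then being assumed to vary like the other groups. Over the same runs, called genes ranged from 32 to 109 for transcription factors, 48 to 77 for secreted proteins, 47 to 99 for surface proteins and 11 to 33 for solute carriers, with the lowest counts without PQ 1. Limma on log2(FPKM + 1) called 69 transcription factors. The cause was not tested. DESeq2 called 1673 genes, the fit without a filter 2617, and the 4 libraries alone 2109. With the labelled protocol as a replicate block 2067 genes were called, 2034 of them among the 2250. Deviations of libraries of the same protocol had a correlation of -0.079 across genes, which are not independent, so the 2 pairs share a protocol and no further likeness was seen. Of the 63 genes named by rule, 47 kept their call and direction under each of 11 alternatives, which did not include the 2-fold threshold, 0 reversed, and 11 lost the call without PQ 1, 10 without control 1, 10 with DESeq2, and 0 with the block. A gene staying at or under 3 counts throughout could not be detected.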
